A study of Mus musculus with 40 samples.

Results

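The genes examined here are the mouse counterparts of genes in which mutations cause or contribute to inherited Parkinson's disease (PD). They were taken by name and not by a cut on measured values, but earlier results of these data were known when they were chosen. They are Park7, Pink1, Fbxo7, Vps35, Dnajc6, Synj1, Lrrk2, Atp13a2 and Uchl1, 9 of the 40213 gene symbols in the count tables. All 9 passed the filter on low counts in both tissues.

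Their proteins act in a few connected processes. PINK1 is a kinase that marks damaged mitochondria for removal, FBXO7 is the substrate-binding part of a ubiquitin ligase that takes part in the same pathway, and DJ-1, the product of Park7, protects cells against oxidative stress. VPS35 is the core of retromer, which returns cargo from endosomes, LRRK2 is a kinase of Rab proteins on endolysosomal membranes, and ATP13A2 exports polyamines from lysosomes. Auxilin (Dnajc6) and synaptojanin 1 (Synj1) strip the clathrin coat from synaptic vesicles after endocytosis, and UCHL1 is an abundant neuronal ubiquitin hydrolase.

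Bulk mRNA sequencing covered 40 libraries from male C57BL/6N mice labelled as 8 weeks old, 20 per tissue (midbrain and spinal cord), with 4 libraries for each of 5 groups. Con received saline. The other 4 groups received the dopaminergic neurotoxin MPTP as 4 intraperitoneal injections of 20 mg/kg at intervals of 2 h. MPTP-Veh, like Con, then received saline at the acupoint GB34 of the lower leg. MPTP-SU received 4 injections of SU-Eohyeol pharmacopuncture (SUEHP), a herbal preparation, at that acupoint. MPTP-SU+S and MPTP-SU+T had SUEHP together with 3 mg/kg of a cannabinoid receptor CB1 antagonist, SR141716A in the methods and SR141714A in the labels, or with 5 mg/kg of the PPARγ inhibitor T0070907. MPTP is an acute toxin model given to wild-type mice, so none of the 9 genes was altered by design. The labels do not say which libraries came from the same animal, so the p-values measure the spread between these libraries.

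Totals ran from 11958200 to 16639823 counts per library. The tissue labels held: the 12 Hox genes of spinal cord position summed to 672.9 to 804.4 CPM (counts scaled to the library total) in the spinal cord and to at most 2.35 CPM in the midbrain, whereas Slc6a3, the dopamine transporter, averaged 79.7 CPM in the midbrain and 0.102 CPM in the spinal cord. One midbrain library, MPTP-Veh replicate 4, stood apart, and the midbrain maximum of 2.35 CPM of Hox genes was also its own. Mitochondrially encoded genes made up 1.35% of its counts against 9.92% to 17.5% in the other 19, and its Spearman correlation across genes with the median library of the others was 0.888, against 0.987 to 0.995 for the rest. All spinal cord libraries reached at least 0.993. Results that rest on MPTP-Veh replicate 4 of the midbrain are given with and without it. In bulk tissue, fewer cells of a type and less RNA per cell cannot be told apart.

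Differences were tested with edgeR's quasi-likelihood test in 1 model per tissue, with p-values adjusted over all tested genes by the Benjamini-Hochberg method. A gene was called when its adjusted p was below 0.05 and its fold change was above 1.5. Fold changes are log2 values of the first group named minus the second, and levels are CPM scaled by TMM.

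Levels of different genes were set side by side only per kilobase of transcript. Uchl1 was the most abundant of the 9, with a median of 351.8 CPM per kb over the 20 midbrain libraries and 292.6 in the spinal cord. Pink1 followed with midbrain and spinal cord medians of 109.3 and 108.4 CPM per kb, and Park7 with 79.2 and 80.8. Dnajc6, Synj1 and Vps35 lay close together, with midbrain medians of 43.1, 37.7 and 32.3 CPM per kb and overlapping ranges. In the spinal cord Synj1, at 40.8 CPM per kb, stood above Dnajc6, at 36.2. Atp13a2 had a midbrain median of 24.2 CPM per kb and Fbxo7 one of 6.27. The ranges of Pink1 and Park7, and of Vps35 and Atp13a2, also overlapped in both tissues, so the order of these neighbours was not separated by the spread of the libraries. Lrrk2 was the scarcest with medians of 1.89 CPM per kb in midbrain and 2.66 in spinal cord.

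**Figure D1:**
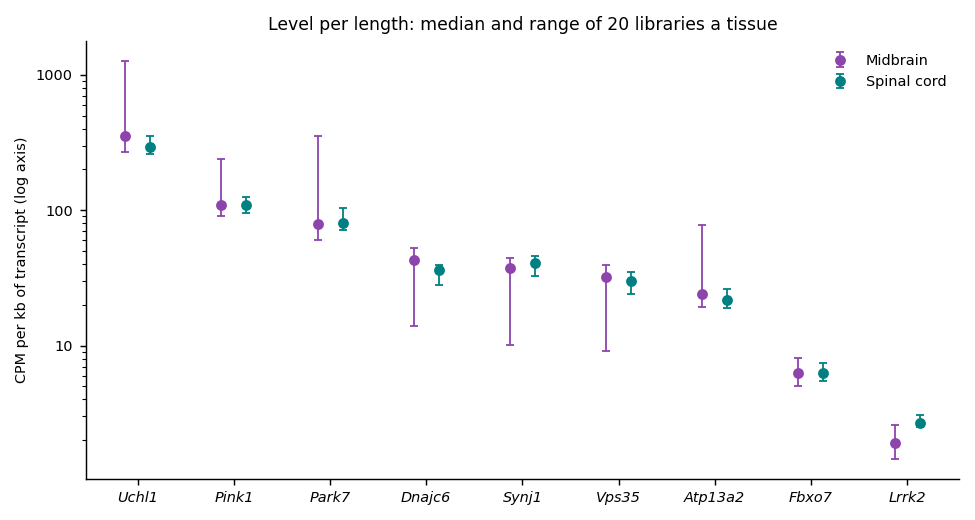
Level of each gene per length, in CPM per kb of its longest transcript on a log axis, as the median (point) and the range (bar) of the 20 libraries of each tissue. Uchl1 is highest and Lrrk2 lowest in both tissues, and the long midbrain bars of Uchl1, Park7, Pink1 and Atp13a2 upward and of Dnajc6, Synj1 and Vps35 downward end at MPTP-Veh replicate 4.

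The largest fold difference between groups among the 9 was that of Park7, the redox gene, in the midbrain, where the SUEHP groups lay below Con and MPTP-Veh lay above it. The 4 Con libraries held 85.4, 83.7, 78.5 and 83.4 CPM of Park7. The MPTP-Veh libraries held 107.4, 92.1, 87.8 and 329.0 CPM, and the MPTP-SU libraries 56.5, 57.1, 63.5 and 74.2 CPM. All 4 MPTP-Veh values were thus above all Con values, and all 4 MPTP-SU values were below both. With the CB1 antagonist the 4 values were 74.6, 60.1, 56.5 and 66.8 CPM, and with the PPARγ inhibitor 57.7, 66.2, 74.2 and 67.3 CPM. These 8 values overlapped those of MPTP-SU and were all below those of Con.

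Vps35, the retromer core gene, ran the other way. Its levels were 138.6, 144.1, 142.5 and 146.3 CPM in Con, 119.7, 136.3, 138.8 and 45.4 CPM in MPTP-Veh, and 198.1, 195.1, 181.4 and 158.2 CPM in MPTP-SU. Each MPTP-SU library was above every Con and MPTP-Veh library, and the MPTP-Veh values reached just into the Con range. The antagonist groups spanned 163.3 to 192.5 CPM with SR141716A and 160.3 to 190.3 CPM with T0070907, inside the span of MPTP-SU.

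Both genes of vesicle uncoating had the same order as Vps35. Dnajc6 was at 199.2, 218.9, 216.5 and 207.8 CPM in Con, 165.5, 186.2, 208.9 and 74.5 CPM in MPTP-Veh, and 267.8, 279.1, 265.2 and 251.9 CPM in MPTP-SU. Synj1 was at 259.4, 292.0, 256.5 and 257.4 CPM in Con, 229.1, 214.5, 236.8 and 71.3 CPM in MPTP-Veh, and 310.5, 316.5, 282.1 and 249.6 CPM in MPTP-SU. For Dnajc6 the MPTP-SU libraries lay above all of Con and MPTP-Veh, whereas for Synj1 they overlapped Con and the separation was of MPTP-Veh below every other midbrain group. In the antagonist groups Dnajc6 spanned 203.1 to 280.9 CPM and Synj1 254.0 to 312.5 CPM, overlapping MPTP-SU.

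The other genes overlapped between most midbrain groups. Uchl1, the neuronal hydrolase, spanned 366.5 to 413.8 CPM in Con, 412.1 to 1498 in MPTP-Veh, 314.7 to 524.1 in MPTP-SU, 378.5 to 460.1 in MPTP-SU+S and 337.6 to 626.3 in MPTP-SU+T. Pink1, the mitochondrial kinase, spanned 216.4 to 286.6 CPM in Con, 247.1 to 569.7 in MPTP-Veh and 228.2 to 291.8 in MPTP-SU. Atp13a2, the lysosomal transporter, spanned 81.8 to 105.9 CPM in Con, 96.9 to 331.4 in MPTP-Veh and 89.7 to 137.3 in MPTP-SU. For these 3 genes the top of the MPTP-Veh span was replicate 4. Lrrk2, the Rab kinase, spanned 14.1 to 21.3 CPM in Con, 12.0 to 18.1 in MPTP-Veh and 12.9 to 18.7 in MPTP-SU, so its groups covered one another.

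**Figure D2:**
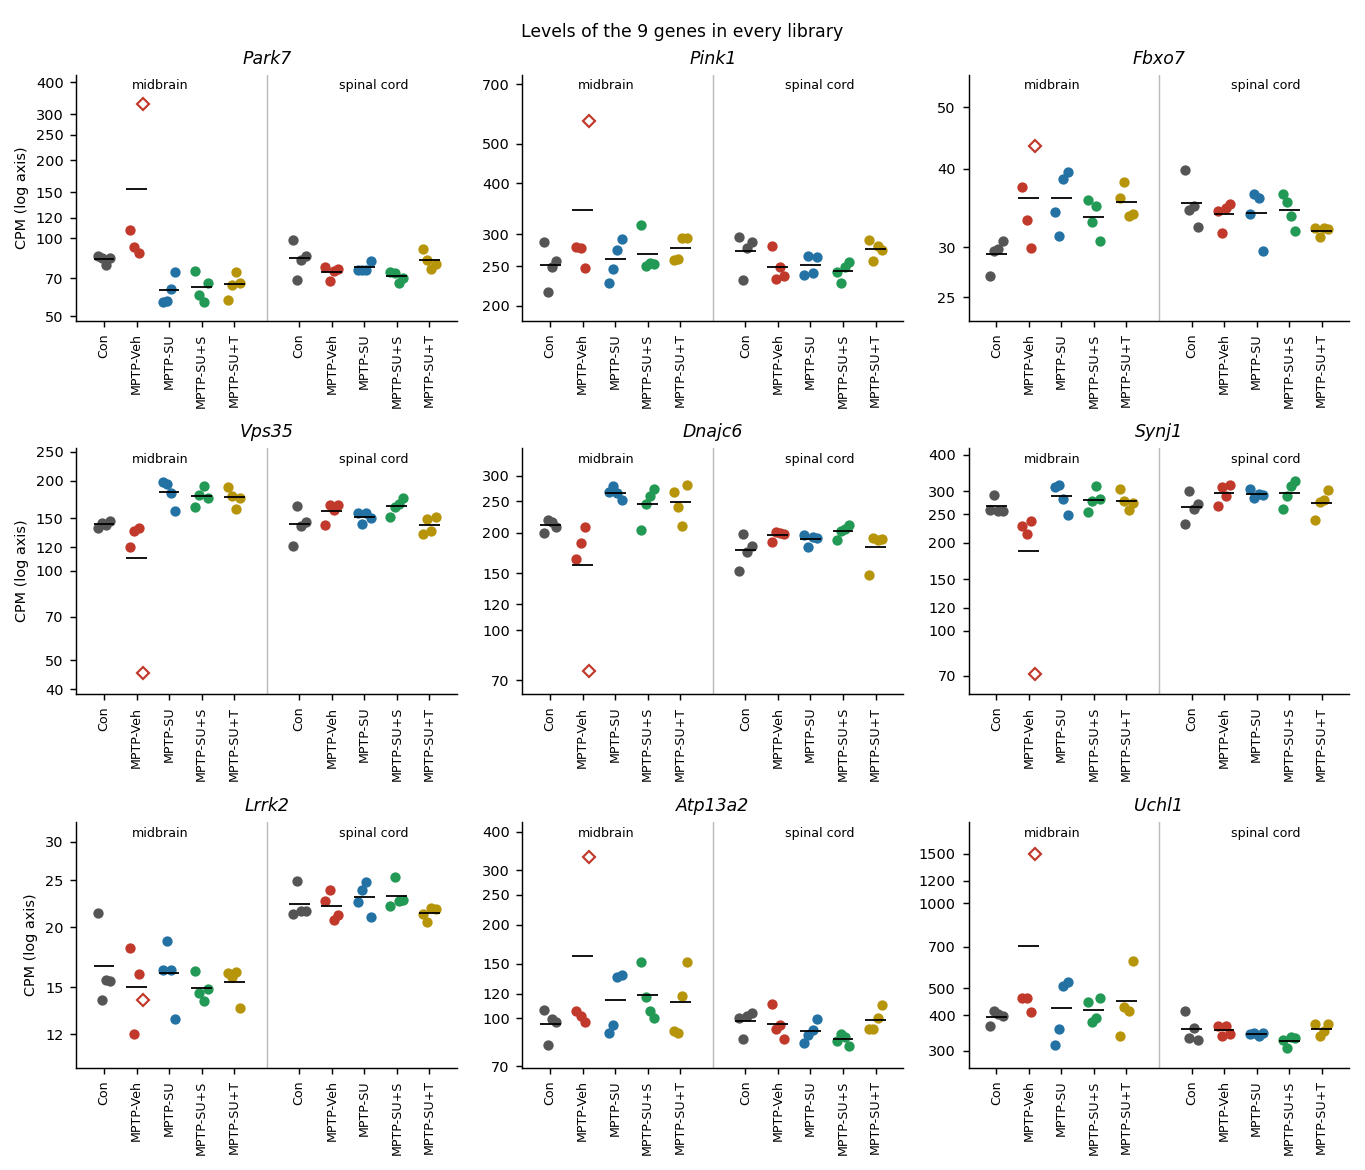
CPM of each gene on a log axis in every library, 5 groups in the midbrain (left of the grey line) and 5 in the spinal cord, 4 libraries per group. Points are libraries, black lines group means, and the open diamond is midbrain MPTP-Veh replicate 4, which is the highest midbrain library for Park7, Pink1, Fbxo7, Atp13a2 and Uchl1 and the lowest for Vps35, Dnajc6 and Synj1.

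RefSeq promoters were matched for 8 of the 9 genes, all but Vps35. Those of the called genes Park7 and Dnajc6 and of Synj1 are shown as the 250 bases before each start (RefSeq, GRCm38.p6), written 5′ to 3′ on the gene's strand. Capitals mark matches on either strand to the letters searched: CACGTG, the core of the lysosomal CLEAR element, TGACNNNGC, the core of the antioxidant response element, GGGCGG, a GC box, and TATAAA. Dnajc6 has 2 listed starts, and the second of the 2 overlapping Synj1 promoters is shown.
Park7, chr4:150909922-150910171, minus strand: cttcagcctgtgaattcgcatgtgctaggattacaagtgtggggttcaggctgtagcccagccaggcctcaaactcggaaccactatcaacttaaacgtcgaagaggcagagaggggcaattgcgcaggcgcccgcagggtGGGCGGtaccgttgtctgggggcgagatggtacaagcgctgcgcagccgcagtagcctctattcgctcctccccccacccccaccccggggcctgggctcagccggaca
Dnajc6, chr4:101507726-101507975, plus strand: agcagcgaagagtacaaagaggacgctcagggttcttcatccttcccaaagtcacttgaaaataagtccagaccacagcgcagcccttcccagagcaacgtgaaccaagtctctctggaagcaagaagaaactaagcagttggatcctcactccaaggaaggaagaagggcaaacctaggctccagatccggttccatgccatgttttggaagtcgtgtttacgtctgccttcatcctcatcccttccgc
Dnajc6, chr4:101550344-101550593, plus strand: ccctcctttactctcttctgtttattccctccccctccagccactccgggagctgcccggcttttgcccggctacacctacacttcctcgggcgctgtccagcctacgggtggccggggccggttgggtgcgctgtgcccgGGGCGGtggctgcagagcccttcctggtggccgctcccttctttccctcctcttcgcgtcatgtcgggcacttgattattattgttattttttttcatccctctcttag
Synj1, chr16:91011096-91011345, minus strand: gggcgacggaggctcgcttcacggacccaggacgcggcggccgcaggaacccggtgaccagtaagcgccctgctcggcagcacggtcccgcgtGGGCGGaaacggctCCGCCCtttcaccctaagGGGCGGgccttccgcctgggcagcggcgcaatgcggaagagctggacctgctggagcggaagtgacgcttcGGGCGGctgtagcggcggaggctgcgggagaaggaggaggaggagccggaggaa
The Park7 promoter had 1 GC box in the 300 bases that run to 50 after the start, the second Dnajc6 promoter had 1 and the Synj1 promoter had 7, of which 4 lie in the bases shown. The first Synj1 promoter, not shown, had no match to any of the letters, and neither had the first of Dnajc6. Of the 32851 RefSeq promoters of that length, 35.7% had at least 1 GC box. No CACGTG, TGACNNNGC or TATAAA was found in the 4 windows printed. Among the promoters of the other genes the GC box was found for Pink1, Atp13a2 and Lrrk2, and CACGTG in 1 promoter of Fbxo7. These shares were 7.15% for CACGTG, 12.4% for TGACNNNGC and 13.6% for TATAAA among all promoters. Matches to different letters did not overlap, since no window above held more than 1 kind. A match is a description of the letters only.

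The comparison of MPTP-SU with MPTP-Veh asks what SUEHP changed in MPTP-treated mice. In the midbrain it called 3 of the 9 genes, beside 13.5% of all tested genes. Park7 fell by 1.29 on the log2 scale (SE 0.30, adjusted p = 0.0125), from 154.0 ± 116.9 to 62.8 ± 8.22 CPM (SD, n = 4). Vps35 rose 1.66-fold (log2 0.73, SE 0.22, adjusted p = 0.0282) and Dnajc6 rose 1.67-fold (log2 0.74, SE 0.20, adjusted p = 0.0217). Synj1 was at 0.62 (SE 0.23) with an adjusted p of 0.0607. For these 4 genes the groups did not overlap, as for 21.9% of all tested genes. Groups that do not overlap always give an exact two-sided permutation p of 0.0286, the smallest that 4 against 4 libraries allow, so it adds nothing further.

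The other 5 genes were not called. Uchl1 was at -0.73 (adjusted p = 0.0974), with means of 426.0 ± 105.4 CPM with SUEHP and 707.6 ± 527.4 CPM without (SD, n = 4), and its 2 groups overlapped. Pink1 was at -0.40 (95% interval -0.81 to 0.01), Atp13a2 at -0.47 (-1.13 to 0.19), Fbxo7 at -0.001 (-0.23 to 0.23) and Lrrk2 at 0.09 (-0.22 to 0.40).

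The size of these differences, and the number of calls, rested in part on MPTP-Veh replicate 4. Without it, Park7 still fell, by 0.61 on the log2 scale (SE 0.11, adjusted p = 0.00143), and was the only 1 of the 9 past both thresholds, beside 3.40% of all genes. Vps35 was at 0.48 (SE 0.08, adjusted p = 0.00124), Dnajc6 at 0.51 (SE 0.11, adjusted p = 0.00382) and Synj1 at 0.35 (SE 0.09, adjusted p = 0.0120), below the fold of 1.5. These 4 genes then had an adjusted p below 0.05, as did 14.6% of all genes, and none of their groups overlapped, as for 24.5% of all genes. Atp13a2 turned from -0.47 to 0.18, Fbxo7 went from -0.001 to 0.10, and Uchl1 and Pink1 went to -0.06 and -0.04.

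**Figure D3:**
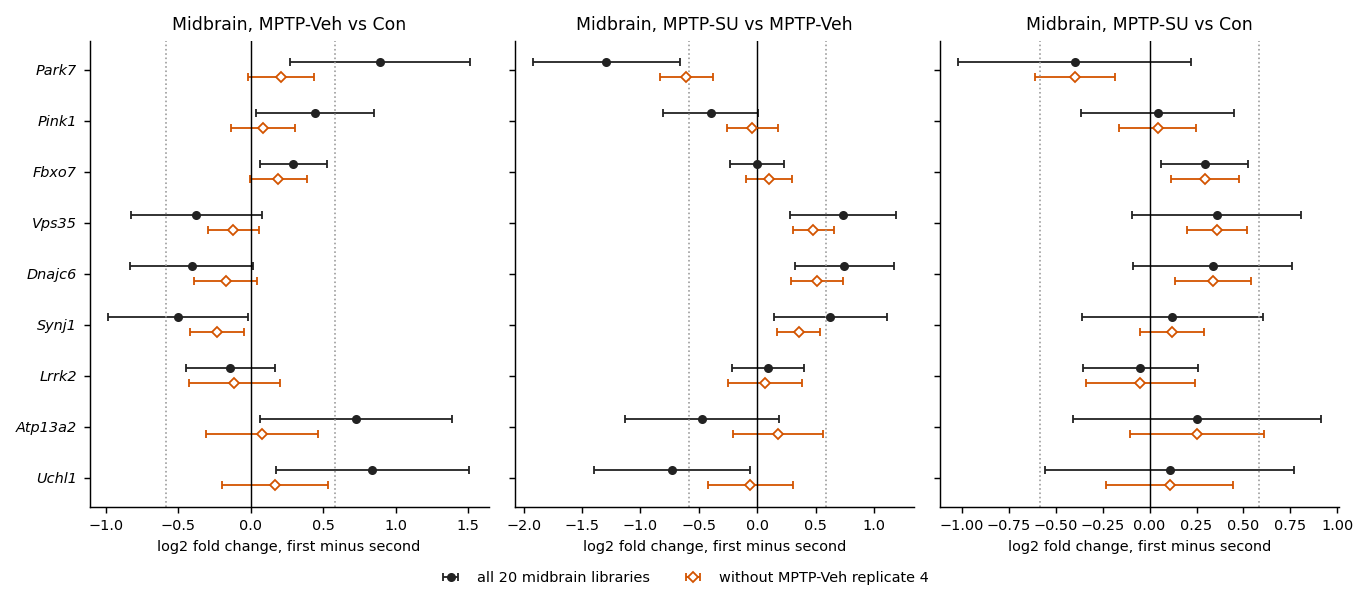
Log2 fold change with its 95% interval for the 9 genes in 3 midbrain comparisons, from the fit of all 20 midbrain libraries (filled points) and from the fit without MPTP-Veh replicate 4 (open diamonds). Dotted lines mark the fold of 1.5. In MPTP-SU vs MPTP-Veh the estimate of Park7 goes from -1.29 to -0.61 and those of Vps35, Dnajc6 and Synj1 stay above 0 with shorter intervals.

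In that library the 9 genes departed from the rest by as much as 4.44 times. Park7 was at 4.44 times the median of the other 19 midbrain libraries, Uchl1 at 3.62, Atp13a2 at 3.27 and Pink1 at 2.20 times. Synj1 was 3.85-fold below that median, Vps35 3.60-fold and Dnajc6 3.21-fold. Only Lrrk2, at 14.1 CPM, lay inside the range of the others. The departures went with base composition and length across all genes: with genes split into 5 equal bins by GC content, the bin medians of that library ran from -1.06 to 1.00 on the log2 scale, and with 5 bins by length from 0.46 in the shortest to -0.48 in the longest. Vps35 has a GC content of 37.8% and Park7 a transcript of 937 nt, against medians of 49.7% and 3353 nt over all tested midbrain genes. Synj1 and Dnajc6, with transcripts of 7090 and 5322 nt, had a GC content of 46.9% and 47.0%, nearer the median than that of Vps35. Fbxo7, with 46.5% and 5388 nt, went against both trends at 1.29 times the median, and Lrrk2, the longest of the 9 at 8275 nt with 45.5%, stayed near its median. Apart from Fbxo7 and Lrrk2, the genes departed by more than any single bin median. How much of a departure these trends cover was not tested.

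**Figure D4:**
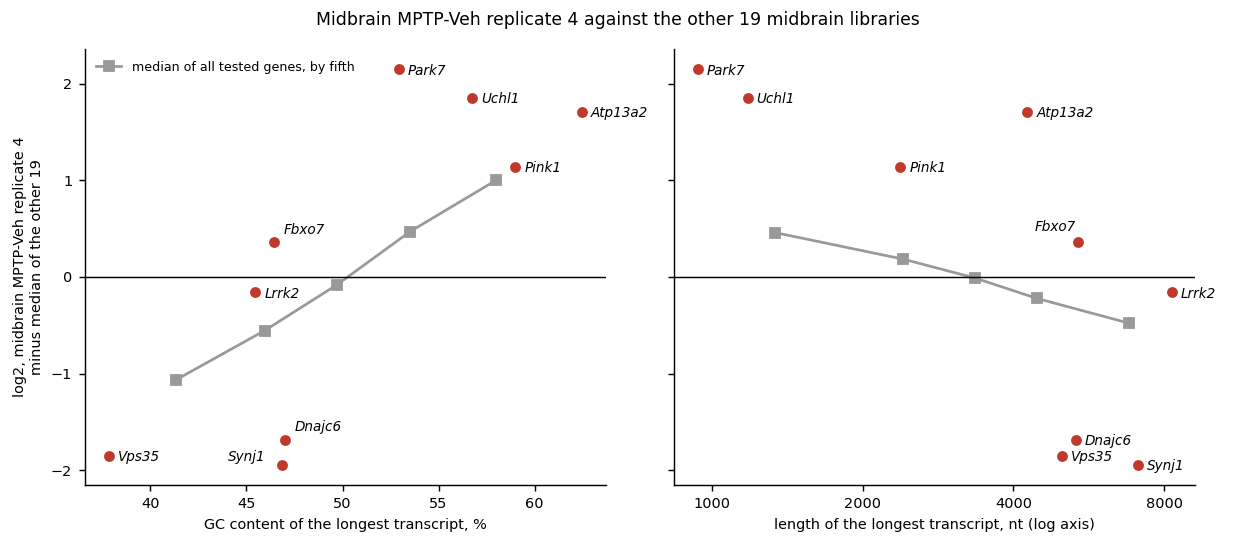
Log2 level of midbrain MPTP-Veh replicate 4 minus the median of the other 19 midbrain libraries, against the GC content (left) and the length on a log axis (right) of the longest transcript. Red points are the 9 genes and grey squares the medians of all tested genes in 5 equal bins, which run from -1.06 to 1.00 with GC content and from 0.46 to -0.48 with length.

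When the trend of each library against GC content and length was removed, Park7 stood at -0.91 (adjusted p = 0.0104) and Dnajc6 at 0.60 (adjusted p = 0.0112), both still called, while Vps35 went to 0.30 (adjusted p = 0.0220), below the fold. When replicate 4 was left out as well, Park7 stood at -0.45, Dnajc6 at 0.43, Synj1 at 0.25 and Vps35 at 0.23, all with an adjusted p below 0.05 and none past the fold. A fit of the 8 libraries of this comparison alone called none of the 9, with adjusted p-values of 0.223 for Park7, 0.224 for Dnajc6 and 0.237 for Vps35, and none of all genes. The call of Vps35 was also lost without MPTP-SU replicate 1 (adjusted p = 0.0648), replicate 2 (0.0737) or replicate 3 (0.0561), and that of Dnajc6 without replicate 2 (0.0601). Scaled by library totals without TMM, Vps35 was at 0.67 (adjusted p = 0.0583). DESeq2 called the same 3 genes and Synj1, beside 16.7% of all genes. limma-voom called Park7 alone, at -0.65, beside 5.14% of all genes, and had Vps35 at 0.51 and Dnajc6 at 0.53, each with an adjusted p below 0.05 but under the fold of 1.5.

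Cell type markers were set beside the same comparison, where 13.5% of all genes were called, or 3.40% without replicate 4. The highest MPTP-Veh sums given below for neuronal, oligodendrocyte, astrocyte, microglial and dopaminergic markers were all those of replicate 4. The summed level of the 12 neuronal markers ran from 8622 to 14486 CPM among MPTP-Veh libraries against 7187 to 8045 CPM after SUEHP, and 5 of the 12 were called lower, or 2 of 12 without replicate 4. Oligodendrocyte markers summed to 11871 to 36044 CPM against 10810 to 13521, with 1 of 10 lower and none without replicate 4. Astrocyte markers summed to 3413 to 4077 CPM against 3454 to 3797, with 4 of 10 lower, and microglial markers to 274.7 to 495.1 CPM against 271.1 to 324.7, with 3 of 11 lower, and neither list had a call without replicate 4. Of 8 endothelial markers none was called in either fit. The 15 dopaminergic markers overlapped at 455.0 to 841.6 CPM and 475.2 to 784.6 CPM, with 3 lower and 2 without replicate 4. Markers of hypothalamus and pituitary reached 783.9 CPM in 1 MPTP-Veh library and 40.8 CPM at most in MPTP-SU, with 3 of 6 tested lower in either fit. No neuronal or dopaminergic marker was at 0 throughout a group, and the part of these markers in the result was not tested.

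The comparison of MPTP-Veh with Con asks what MPTP alone did. In the midbrain none of the 9 was called, beside 0.0180% of all genes, although 6 of the 9 had an unadjusted p below 0.05 in edgeR, as had 23.7% of all genes. DESeq2 and limma-voom also called none. Park7 was at 0.89 (SE 0.30, adjusted p = 0.131) with all MPTP-Veh libraries above Con, and Synj1 at -0.50 (SE 0.23, adjusted p = 0.197) with all below, so that 2 of 9 genes did not overlap, against 12.4% of all tested genes. Without replicate 4 these 2 differences were 0.21 (adjusted p = 0.459) and -0.23 (adjusted p = 0.298), and those of Uchl1 and Atp13a2 went from 0.84 and 0.73 to 0.17 and 0.08. Without replicate 3 in its place, Park7 passed both thresholds at 1.08 (adjusted p = 0.0432), as did 6.47% of all genes.

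MPTP-SU against Con sets the treated mice beside the saline controls and does not use the MPTP-Veh levels. None of the 9 was called, beside 0.764% of all genes, and 1 had an unadjusted p below 0.05, beside 16.1%, and DESeq2 and limma-voom called none. Park7 lay lower in every MPTP-SU library than in any Con library, at -0.40 (SE 0.30), and Vps35 at 0.36 (SE 0.21), Dnajc6 at 0.34 (SE 0.20) and Fbxo7 at 0.29 (SE 0.11) lay higher in every one. These are 4 of 9 genes that did not overlap, against 19.6% of all tested genes. The model shares 1 estimate of spread among the midbrain libraries, and without MPTP-Veh replicate 4 the same 4 genes had adjusted p-values of 0.0137, 0.00547, 0.0245 and 0.0277 at nearly the same log2 values, as had 15.7% of all genes. When the trend against GC content and length was removed as well, Vps35 was at 0.16 (adjusted p = 0.0912) and Fbxo7 at 0.27 (adjusted p = 0.0706). Park7 at -0.32 (adjusted p = 0.00655) and Dnajc6 at 0.32 (adjusted p = 0.0124) stayed below 0.05. Pink1 at 0.23 (adjusted p = 0.0421) and Atp13a2 at 0.38 (adjusted p = 0.0118) came below it, so the set of genes depended on the fit. None of the 9 reached the fold of 1.5 in these fits.

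Fbxo7, the ubiquitin ligase component, differed little beyond that. Its Con libraries held 27.0, 29.6, 29.8 and 30.7 CPM and its MPTP-SU libraries 34.1, 31.3, 38.5 and 39.6 CPM. MPTP-Veh lay between and beyond at 37.4, 33.1, 29.9 and 43.4 CPM, overlapping both.

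A test of any difference among the 5 midbrain groups called Park7 alone of the 9 (adjusted p = 0.0248), beside 7.10% of all genes, and 3 of the 9 had an unadjusted p below 0.05, as had 27.9%. Without MPTP-Veh replicate 4 it called Park7 (adjusted p = 0.00191), Vps35 (0.00138) and Dnajc6 (0.0113), beside 14.5% of all genes. Pink1, Atp13a2, Uchl1 and Lrrk2 had adjusted p-values of at least 0.223 with all libraries.

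The CB1 antagonist and the PPARγ inhibitor were given with SUEHP to ask whether either receptor takes part in its action. In the midbrain none of the 9 genes passed the test. For MPTP-SU+S vs MPTP-SU, 0 were called and 0 had an unadjusted p below 0.05. Of all genes 0% were called there and 1.65% (274) had an unadjusted p below 0.05. The same held for MPTP-SU+T vs MPTP-SU, with 0% of all genes called and 1.70% (283) at an unadjusted p below 0.05. DESeq2 and limma-voom called none of the 9 in either. The log2 differences of the 9 ran from -0.12 for Dnajc6 to 0.05 for Atp13a2 with SR141716A, and from -0.09 for Dnajc6 to 0.09 for Pink1 with T0070907. Their 95% intervals reached from -0.69 to 0.71 and from -0.68 to 0.75, the widest being those of Atp13a2 and Uchl1. For Park7 the interval was -0.58 to 0.66 with SR141716A and -0.54 to 0.70 with T0070907. MPTP-Veh replicate 4 is in neither comparison but enters the shared estimate of spread. Without it the Park7 intervals were -0.17 to 0.25 and -0.13 to 0.29, those of the 9 reached from -0.39 to 0.41 and from -0.38 to 0.42, and again none was called. In that fit 676 and 705 of 16831 genes had an unadjusted p below 0.05 in the 2 comparisons.

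In the spinal cord the 9 genes kept to narrow ranges. Over its 20 libraries Park7 ran from 67.1 to 98.1 CPM, Vps35 from 121.1 to 175.0, Dnajc6 from 148.0 to 210.8 and Synj1 from 231.4 to 324.6 CPM. Their coefficients of variation were 6.50% for Lrrk2 to 9.83% for Park7, against 9.34% for Pink1 to 19.2% for Park7 over the 19 midbrain libraries without MPTP-Veh replicate 4. Each of the 9 varied more in those midbrain libraries than in the spinal cord. For Pink1 (9.34% against 8.35%) and Synj1 (10.6% against 8.73%) the values lay close together.

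None of the 9 was called in any spinal cord comparison by edgeR, DESeq2 or limma-voom. For MPTP-Veh vs Con, with 0% of all genes called, 3 of the 9 had an unadjusted p below 0.05, beside 12.8% of all genes. They were Park7 at -0.18 (SE 0.08), Vps35 at 0.15 (SE 0.07) and Dnajc6 at 0.15 (SE 0.07), with adjusted p-values of at least 0.331. Their groups overlapped. For MPTP-SU vs MPTP-Veh, again with 0% of all genes called, 0 of the 9 had an unadjusted p below 0.05, and the log2 differences ran from -0.08 for Atp13a2 to 0.06 for Lrrk2. Park7 averaged 74.0 ± 3.93 CPM without and 77.0 ± 3.24 CPM with SUEHP, and Vps35 at 158.8 ± 11.3 and 151.5 ± 6.24 CPM (SD, n = 4). The 95% intervals of the 9 lay between -0.24 and 0.21.

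With the antagonists, MPTP-SU+S vs MPTP-SU had 0% of all genes called and none of the 9 at an unadjusted p below 0.05. Park7 (71.1 ± 3.21 against 77.0 ± 3.24 CPM) and Uchl1 (325.7 ± 12.6 against 343.8 ± 4.55 CPM) lay lower in every MPTP-SU+S library than in any MPTP-SU library, which is 2 of 9 genes against 4.19% of all tested genes. Their adjusted p-values were 0.910 and 0.919. MPTP-SU+T vs MPTP-SU had 0.0240% of all genes called, none of the 9 among them and 0 of the 9 at an unadjusted p below 0.05. MPTP-SU vs Con had 0% called and 0 of the 9 at an unadjusted p below 0.05, with log2 values from -0.12 for Park7 to 0.15 for Synj1. The test of any difference among the 5 spinal cord groups called 0.150% of all genes and none of the 9, of which 3 had an unadjusted p below 0.05, as had 16.8% of all genes. Without Con replicate 2 it called Pink1, Park7 and Vps35, beside 7.26% of all genes.

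The contrast between the tissues was tested directly. For MPTP-SU vs MPTP-Veh the midbrain difference minus the spinal cord difference was -1.34 for Park7 (SE 0.31, adjusted p = 0.00603), 0.80 for Vps35 (SE 0.23, adjusted p = 0.0200) and 0.79 for Dnajc6 (SE 0.22, adjusted p = 0.0170), which are 3 of 9 genes beside 16.8% of all genes. Without replicate 4 of MPTP-Veh in both tissues, the same 3 passed at -0.66, 0.54 and 0.57 (adjusted p = 0.00350, 0.00351 and 0.00743), beside 8.97% of all genes. Without replicate 2 of MPTP-SU in both tissues, Park7 alone passed, beside 6.85% of all genes, and Vps35 and Dnajc6 had adjusted p-values of 0.0624 and 0.0540. For MPTP-Veh vs Con none of the 9 passed, beside 3.12% of all genes, with 8 of 9 at an unadjusted p below 0.05, beside 27.7% of all genes, and Park7 nearest at 1.05 (SE 0.31, adjusted p = 0.0517). DESeq2 called Park7 there, beside 11.1% of all genes, and limma-voom Park7 and Synj1, beside 5.04%. Without replicate 4 of MPTP-Veh none of the 9 and 0.261% of all genes were called, and without replicate 3 edgeR called 6 of the 9 and 16.1% of all genes.

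Between the tissues as a whole, over all 40 libraries, none of the 9 differed by more than 1.5-fold, beside 22.0% of all genes called. DESeq2 and limma-voom called none. Lrrk2 was lower in the midbrain (log2 -0.51, SE 0.05, adjusted p = 5.39e-11), with a range of 12.0 to 21.3 CPM against 20.5 to 25.4 CPM in the spinal cord. Of 4 genes with an unadjusted p below 0.05, which 68.8% of all genes had, Lrrk2 and Dnajc6 (0.24, adjusted p = 0.00307) also differed in the Con libraries alone, at -0.42 (adjusted p = 0.0157) and 0.26 (adjusted p = 0.0240). Uchl1 (0.44, adjusted p = 0.000467) and Atp13a2 (0.35, adjusted p = 0.00454) were at 0.14 (adjusted p = 0.162) and -0.02 (adjusted p = 0.871) in Con alone. Fbxo7, at 0.01 over all libraries (adjusted p = 0.844), was at -0.27 in Con alone (adjusted p = 0.0172). Without MPTP-Veh replicate 4 of both tissues the differences of Lrrk2, Uchl1, Atp13a2 and Dnajc6 were -0.51, 0.30, 0.21 and 0.29, each with an adjusted p below 0.05, and Vps35 joined them at 0.10 (adjusted p = 0.0150). Over all libraries Park7, Vps35, Fbxo7, Pink1 and Synj1 lay between -0.14 and 0.12, with adjusted p-values of at least 0.122.

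Within a tissue, Park7 and Vps35 ran opposite to each other from library to library, as did other pairs of these genes. Across the 20 midbrain libraries Spearman's rho between them was -0.987, and it was -0.984 over the 19 without MPTP-Veh replicate 4. In the spinal cord, where no group difference was called, rho was -0.817 over 20 libraries. The midbrain value was the lowest of all pairs of these genes, while in the spinal cord Pink1 against Vps35 was also at -0.817. Park7 ran against Synj1 as well (-0.866 in midbrain, -0.651 in spinal cord) and against Dnajc6 (-0.841 and -0.791). Vps35 went with Dnajc6 (0.838 in midbrain, 0.950 in spinal cord) and with Synj1 (0.874 and 0.878). Pink1 went with Atp13a2 (0.794 and 0.654) and with Uchl1 (0.635 and 0.584). These are descriptions across libraries that share groups, and GC content and length differ between the genes as given above.

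**Figure D5:**
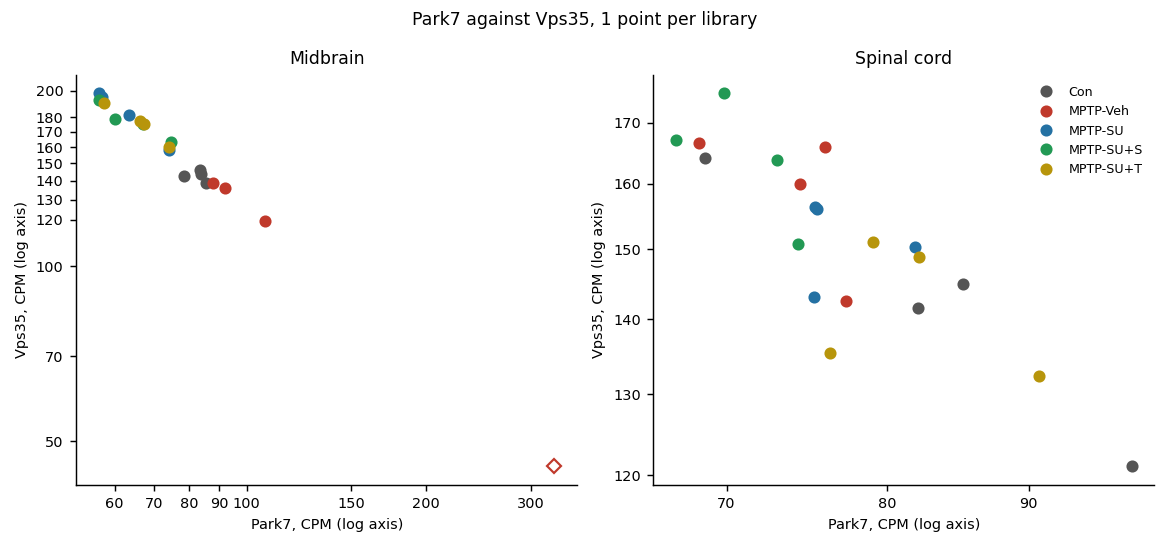
Park7 against Vps35 in CPM, both on log axes, with 1 point per library and 20 libraries per tissue, coloured by group. The midbrain points fall along a line (rho -0.987), with MPTP-SU and the antagonist groups at low Park7 and high Vps35 and MPTP-Veh replicate 4 (open diamond) at 329.0 and 45.4 CPM. The spinal cord points slope the same way within a narrower range (rho -0.817).

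The genes most like each of the 9 over the 20 libraries of a tissue were found by Spearman's rho of log2 CPM. For Park7 this was Nudt3, a pyrophosphohydrolase, in the midbrain (rho 0.985) and Cdc37, a kinase co-chaperone of Hsp90, in the spinal cord (0.920). For Vps35 they were Trappc13 of the TRAPP trafficking complex (0.981) and G3bp2, a stress granule protein (0.958). For Dnajc6 it was the inositol transporter Slc2a13 in the midbrain (0.968). For Synj1 they were the actin regulator Nckap1 (0.955) and the kinesin adaptor Spag9 (0.955), and for Uchl1 the neuronal tubulin Tubb3 (0.908) and the ribosomal protein Rpsa (0.932). For Pink1 they were the polarity gene Pard6a (0.883) and the Polycomb gene Phc2 (0.931). For Atp13a2 they were Gpaa1 of the GPI transamidase (0.928) and the centromere protein Cenpb (0.929), and for Fbxo7 they were Rdm1 (0.887) and Car15 (0.874). Lrrk2 had the lowest values, with Slc35f4 (0.812) and 4930503L19Rik (0.791). Each rho is the largest over all tested genes, across libraries that share groups, and the value that chance would give was not computed.

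The pathways around the 9 genes were followed through 8 lists, counted by the calls of midbrain MPTP-SU vs MPTP-Veh, in which 13.5% of all genes were called and the median log2 difference over all genes was 0.0007. The shares called on the lists ran from 4.35% for retromer and for the Lrrk2 partners to 22.2% for vesicle endocytosis, on both sides of that of all genes, and the mitophagy list, at 14.3%, was close to it. Of 35 mitophagy genes around Pink1, 5 fell and 0 rose (median -0.10). They included Optn, an autophagy receptor for mitochondria (-0.98, SE 0.21, adjusted p = 0.00927), and the matrix protease Lonp1 (-0.96, SE 0.23, adjusted p = 0.0149). Of 23 retromer and endosomal sorting genes around Vps35, 1 rose, Washc4 of the WASH complex (0.78, adjusted p = 0.0432), and none fell (median 0.14). Of 36 genes of synaptic vesicle endocytosis, 1 rose and 7 fell (median 0.08). The clathrin light chains Clta (-0.83, adjusted p = 0.00908) and Cltb (-1.29, adjusted p = 0.0138) fell, while Synj2, the relative of Synj1, rose (0.60, adjusted p = 0.0189).

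Of 23 tested partners and Rab substrates of Lrrk2, 1 fell, Rilpl1 (-0.96, adjusted p = 0.0144), and none rose (median -0.09). Of 39 lysosomal genes around Atp13a2, the proton pump subunit Atp6v1a rose (0.62, adjusted p = 0.0326) and cathepsin Z, Ctsz, fell (-1.23, adjusted p = 0.0257), with a median of -0.03. Of 29 tested genes of the ubiquitin system, 1 rose, the deubiquitinase Usp9x (0.62, adjusted p = 0.0447), and 2 fell, the ligase Stub1 (-1.32, adjusted p = 0.0153) and Fbxo2 (-1.05, adjusted p = 0.0348), with a median of 0.06.

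Of 24 redox genes around Park7, 3 rose and 2 fell (median -0.004). Gclm, of glutathione synthesis (0.70, SE 0.14, adjusted p = 0.00793), and the quinone reductase Nqo1 (0.62, SE 0.12, adjusted p = 0.00553) rose. Superoxide dismutase Sod1 (-1.06, SE 0.18, adjusted p = 0.00296) and the peroxiredoxin Prdx5 (-1.24, SE 0.30, adjusted p = 0.0153) fell. Of 22 other genes linked to parkinsonism, Tmem230 rose (0.61, adjusted p = 0.0439) and Chchd2 (-0.75, adjusted p = 0.0195) and Dctn1 (-1.08, adjusted p = 0.0229) fell, with a median of -0.04.

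Without MPTP-Veh replicate 4 the calls left on the 8 lists were Nqo1 (0.61, adjusted p = 0.00313) and Sod1 (-0.77, adjusted p = 0.000152), both among the redox genes, beside 3.40% of all genes called. By adjusted p alone that fit had members in both directions on all 8 lists, 5 higher and 5 lower for mitophagy, 4 and 4 for retromer, 5 and 6 for vesicle endocytosis, and 4 and 2 for lysosomal genes. The shares ran from 15.4% of the lysosomal to 34.8% of the retromer list, against 14.6% of all genes. Of the 19 genes named above from this comparison, Ctsz (adjusted p = 0.0743) and Fbxo2 (adjusted p = 0.193) had no adjusted p below 0.05 in it. For MPTP-SU vs Con no gene of the 8 lists was called in the midbrain with all libraries, and 1 was called without replicate 4, Rilpl1 of the Lrrk2 partners (-0.62, SE 0.08, adjusted p = 0.000216), beside 4.67% of all genes.

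Between the tissues, where 22.0% of all genes were called, the calls on the lists were as follows. Retromer and sorting had 3 of 23, all lower in the midbrain, such as the receptor Sorl1 (-0.72, SE 0.05, adjusted p = 6.76e-15) and the Rab regulator Tbc1d5 (-0.60, SE 0.03, adjusted p = 1.42e-17). Vesicle endocytosis had 2 higher and 2 lower of 36, with the calcium sensor Syt1 at 1.67 (SE 0.09, adjusted p = 2.06e-17) and Itsn2 at -0.64 (SE 0.07, adjusted p = 3.06e-10). Lrrk2 partners had 3 of 23 lower, among them the motor adaptor Mapk8ip3 (-0.65, SE 0.05, adjusted p = 6.80e-15) and Rab7b (-1.48, SE 0.12, adjusted p = 1.02e-12). Of 39 lysosomal genes 1 was higher, the proton pump accessory gene Atp6ap2 (0.65, SE 0.05, adjusted p = 6.43e-13), and of 24 redox genes 1 was higher, the methionine sulfoxide reductase Msra (0.60, SE 0.04, adjusted p = 4.44e-14). The other parkinsonism genes had 4 higher and 1 lower of 22, led by Slc6a3 (9.61) and Th (4.14), the dopamine synthesis gene. The mitophagy and ubiquitin lists had none of 35 and 29.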

How the data were processed

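Libraries of mRNA from the midbrain and spinal cord were grouped by the tissue and treatment in their titles. Per the methods, the authors used fastp for trimming, STAR for alignment and Salmon for quantification, and the values they deposited are estimated counts, 1 whole number for each gene symbol. The submitters' processing notes also name GATK and the build GRCm39. Versions, annotation and counting strand are not given in the sources used here, so reads of a gene and an antisense partner cannot be told apart.

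Counts were tested with edgeR 4.0.16 (quasi-likelihood, TMM, R 4.3.3, low-count filter by filterByExpr) in 1 model per tissue and in 1 model of all 40 libraries for comparisons between tissues, with Benjamini-Hochberg adjustment over all tested genes. For single genes, an exact two-sided permutation test over libraries was added. DESeq2 1.42.0 and limma-voom (limma 3.58.1) with sample quality weights were alternatives, beside other scalings, filters, libraries in the fit, a GC content and length offset, and each library left out. Tests between tissues of a treatment effect, and tests among 5 groups, used the adjusted p alone. Log2 CPM used a prior count of 2. Library totals limit precision by counting error only. Scripts were tested on simulated data. Length and GC content, from the longest transcript in GENCODE M21 (GRCm38), were found for 91.7% of tested midbrain and 91.9% of tested spinal cord genes. No columns of other samples were present (0).

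Named genes are the 9 members, the gene most correlated with each in each tissue (that of Dnajc6 in the spinal cord is not reported here), and per pathway list up to 2 called genes per direction with the smallest p. Members and lists were chosen with earlier results of these data known. Replicate numbers were shared between groups, and the correlations of same-numbered deviations ran from -0.15 to 0.30, so the numbers were not taken to pair libraries.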

Additional observations from a re-analysis of the deposited data

Results flagged for a closer look

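In groups of 4 libraries, a value was set apart when its gap to the nearest other made up more of the range of the group than Dixon's 95% critical value, which chance gives in about 1 in 20 groups. Of 90 groups, 12 met this. MPTP-Veh replicate 4 of the midbrain accounted for 5 of them. Its Pink1 level was 569.7 CPM against 247.1 to 279.7 in the other 3 libraries, its Park7 level 329.0 against 87.8 to 107.4, and its Atp13a2 level 331.4 against 96.9 to 105.4. Its Uchl1 level was 1498 CPM against 412.1 to 460.4, and its Synj1 level 71.3 CPM against 214.5 to 236.8.

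The other 7 were spread over libraries. In the midbrain they were Pink1 at 315.2 CPM in MPTP-SU+S replicate 1, Lrrk2 at 13.6 CPM in MPTP-SU+T replicate 4 and Synj1 at 292.0 CPM in Con replicate 2. In the spinal cord they were Fbxo7 at 31.1 CPM in MPTP-SU+T replicate 2, Park7 at 81.9 CPM in MPTP-SU replicate 4, Lrrk2 at 24.9 CPM in Con replicate 2 and Dnajc6 at 148.0 CPM in MPTP-SU+T replicate 1.

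The effect of MPTP-SU against MPTP-Veh differed between the tissues, by an interaction test in edgeR, for 3 of the 9 genes, beside 16.8% of all genes. The midbrain minus spinal cord difference was -1.34 on the log2 scale for Park7, 0.80 for Vps35 and 0.79 for Dnajc6. Without replicate 4 of MPTP-Veh in both tissues these differences were -0.66, 0.54 and 0.57.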

How the results depend on the processing

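Of 6 called differences of the 9 genes over 108 alternatives, 90 kept the call, 18 lost it and 0 turned direction. Of 111 uncalled differences over 2205 alternatives, 33 became called. For midbrain MPTP-SU vs MPTP-Veh, 3 of the 9 and 13.5% of all genes were called. There limma-voom called 1 of the 9, beside 5.14% of all genes, and the 8 libraries alone called 0 of the 9 and none of all genes. Leaving out MPTP-Veh replicate 4 with the GC content and length offset, an alternative chosen after seeing the data, called 0 of the 9. In MPTP-SU vs Con, dropping that library and the fold threshold, also chosen after seeing the data, gave 4, beside 15.7% of all genes. Among the 5 midbrain groups (1 called), DESeq2 gave 3, limma-voom 5 and the offset 2, while the share of all genes called rose from 7.10% to 19.9%, 32.6% and 11.8%. For the tissue difference of MPTP-Veh vs Con (0 called), DESeq2, RLE size factors and removal of mitochondrially encoded genes gave 1 each and limma-voom 2, beside 11.1%, 4.13%, 3.89% and 5.04% of all genes against 3.12%. Between the tissues 4 of the 9 and 66.2% of all genes passed without the fold threshold.

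Leaving out 1 library at a time gave 0 to 1 for midbrain MPTP-Veh vs Con, 1 to 5 for MPTP-SU vs MPTP-Veh, 1 to 3 among the 5 midbrain groups, 0 to 3 among the 5 spinal cord groups, 0 to 6 for the tissue difference of MPTP-Veh vs Con and 1 to 4 for that of MPTP-SU vs MPTP-Veh. The share of all genes called moved as well. Without MPTP-Veh replicate 4 it went from 13.5% to 3.40% for midbrain MPTP-SU vs MPTP-Veh, with 1 of the 9 called. Among the 5 midbrain groups it went from 7.10% to 14.5%, with 3 of the 9 called. The cause of these changes was not tested. With the replicate number as a block, midbrain MPTP-SU vs MPTP-Veh again called 3 of the 9, and 2020 genes of all against 2237, and no count of called members changed. Among same-numbered pairs, 7 of 20 from midbrain and 1 of 20 from spinal cord correlated above 0.1, including 3 of 4 each for midbrain MPTP-SU vs MPTP-Veh and MPTP-SU+T vs MPTP-SU. Since not every pair did and the labels give no shared animal or batch, the numbers were not taken as a pairing. With 4 libraries per group, an exact test cannot go below 0.0286.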
